A study of Ovis aries with 7 samples.

Results

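The 45 genes described here encode the machinery that licenses replication origins, unwinds DNA and copies it: the origin recognition complex, the licensing factors CDC6, CDT1 and GMNN, the MCM proteins, the helicase activators, the replicative polymerases, the sliding clamp with its loader, the single-strand binding protein RPA, and the nuclease FEN1 with the ligase LIG1. The members are a list of gene symbols compiled from their known roles. Their measured values are no part of the rule, although the list was proposed with earlier results of these data known. Of the members, 45 of 45 have a row in the deposited table of 31304 rows, 16526 of which carry a gene symbol. RNA came from sheep (Ovis aries) embryos collected at the 8-cell stage after in vitro fertilization (IVF, 3 libraries). The design also names 4 libraries from somatic cell nuclear transfer (SCNT), in which a somatic nucleus takes the place of the egg's own. The SCNT libraries are not analysed here: 4 table columns bear a name found in no sample label. Every value below is therefore from IVF embryos, and no SCNT to IVF difference is given. The labels do not state the breed, the donor animals, the embryos per library or which trial a library came from, so the spread between libraries may be technical.

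Before a cell divides, the origin recognition complex marks DNA sites at which CDC6 and CDT1 load a ring of MCM2 to MCM7, a step called licensing that geminin (GMNN) blocks once DNA synthesis has begun. The kinase CDC7 with its partner DBF4, and the factors CDC45 and GINS, then turn the ring into an active helicase. Polymerase alpha with primase starts each strand, and polymerases delta and epsilon extend it while held by the PCNA ring, which the RFC complex opens and closes. Early cleavage divisions alternate DNA synthesis and mitosis with little growth, and they begin on proteins and RNA stored in the egg. These libraries hold no oocyte or earlier stage, so stored and newly made RNA cannot be told apart, and neither can fewer cells and less RNA per cell.

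RNA of this machinery was present for nearly every member but at very unequal levels. Values are in TPM (transcript abundance scaled to gene length and to a fixed total per library), which puts genes on a common scale. That scaling does not remove effects of polyA selection, amplification, gene annotation or read counting. Differences between genes are therefore those of the deposited values. Levels are given for replicates 1, 2 and 3 in that order or as mean ± SD over the 3 libraries. A level of 1 TPM or more in each of the 3 libraries was reached by 44 of 45 members, beside 49.0% of all rows with a gene symbol. The exception was POLE3, a histone-fold accessory subunit of polymerase epsilon, at 0.912, 0.568 and 1.57 TPM. The median member stood at 20.5, 20.1 and 18.3 TPM, against 1.46, 1.74 and 1.32 TPM for the median symbol row. That row includes many silent genes. Among rows whose mean reached 5 TPM the median was 20.2 ± 1.92 TPM over all symbols and 26.4, 25.8 and 22.3 TPM over the 37 replication genes that passed. The median over all 45 was 19.6 ± 1.14 TPM. By mean TPM, 7 members were at or above 100, 29 at or above 10, and 16 below 10, and 13 had a mean above that of at least 90% of symbol rows.

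The members took 0.354, 0.343 and 0.358% of all TPM, and GMNN with PCNA made up 49.7, 50.9 and 52.0% of that amount. Without those genes the share was 0.173%, so about as much TPM lay in them as in all the others. On the plot of percentiles among symbol rows, GMNN and PCNA lie above 99% of rows, whereas POLE, POLA2 and POLE3 lie near or below the middle.

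**Figure D1:**
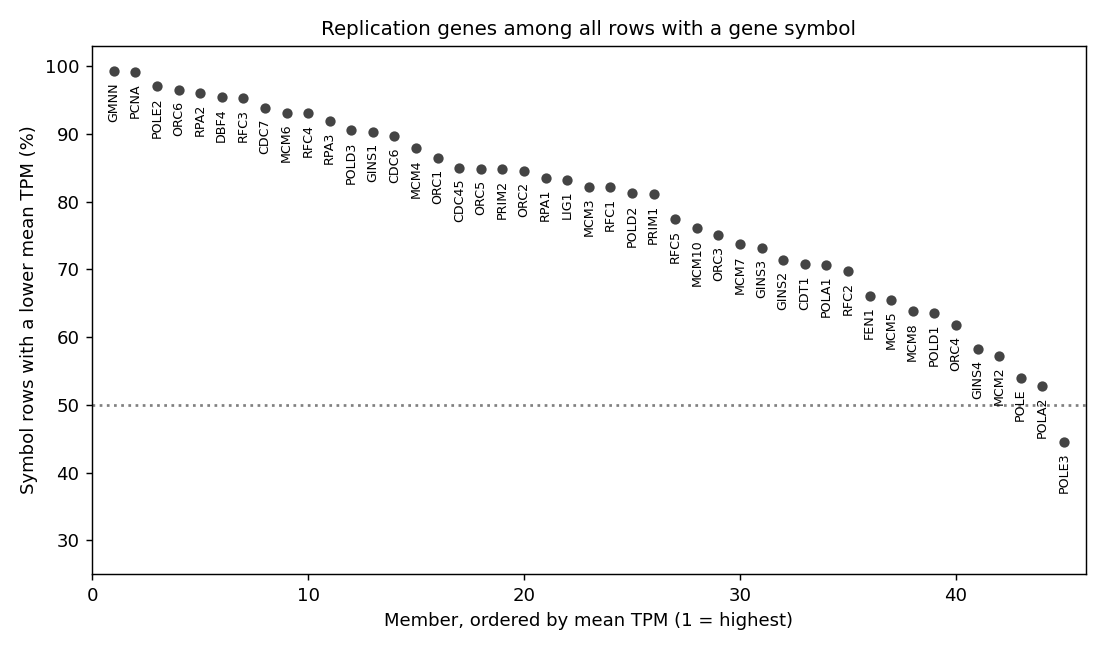
Each point is a replication gene, ordered by mean TPM over the 3 IVF libraries on the x axis; the y axis gives the percentage of 16526 symbol rows with a lower mean TPM, with a dotted line at 50%. GMNN (99.3%) and PCNA (99.1%) stand highest and POLE3 (44.6%) is the lowest and the sole member under the line.

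Among the origin recognition genes, ORC6, the smallest subunit and the least tightly bound, was far above its partners. ORC6 was at 173, 193 and 189.9 TPM. ORC1, the ATPase whose arrival completes the complex, was at 20.5, 36.3 and 36.1 TPM, lowest in replicate 1. All ORC6 values lay above all ORC1 values, a ratio of 8.45, 5.32 and 5.26 within libraries and a mean difference of 2.59 ± 0.37 on the log2(TPM + 1) scale. The core subunits ORC2 (24.8 ± 2.84 TPM) and ORC5 (25.8 ± 1.84 TPM) overlapped with ORC1 and with each other. ORC3 followed at 9.00, 14.5 and 8.99 TPM and ORC4 was lowest at 2.76, 5.43 and 3.45 TPM. ORC2, ORC3 and ORC4 did not overlap in that order. The complex is built from a single copy of each subunit, so its RNA levels, spread 47.7-fold from ORC4 to ORC6 by their means, did not follow that composition.

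The licensing factors covered a wider span, with the inhibitor far above its target. GMNN was at 1229, 749 and 1056 TPM, the highest mean of the 45 members (1011 ± 243) and lowest in replicate 2. CDT1, which geminin binds and holds away from the MCM ring, was at 9.00, 7.12 and 6.87 TPM. GMNN exceeded CDT1 by 136, 105 and 154 times, a log2(TPM + 1) difference of 6.85 ± 0.28. CDC6, the ATPase that works with CDT1 in loading, lay between them at 48.2, 43.8 and 52.1 TPM. None of these genes overlapped with another, and CDC6 exceeded CDT1 in 3 of 3 libraries by a log2(TPM + 1) difference of 2.51 ± 0.23. RNA levels do not give the amounts of the proteins, which are degraded at set times of the cell cycle.

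Subunits of the MCM2 to MCM7 ring, present in equal numbers in the assembled helicase, formed a graded series of RNA levels. MCM6 led at 102, 73.4 and 68.4 TPM. MCM4 followed at 39.8, 34.3 and 35.4 TPM and MCM3 at 21.8, 19.3 and 18.4 TPM. These genes were each separated from the next without overlap. MCM7 was at 8.12, 12.1 and 8.48 TPM and MCM5 at 6.24, 5.20 and 3.98 TPM, again without overlap. MCM2, the subunit that also carries a histone-binding tail, was lowest at 5.29, 1.29 and 1.72 TPM, and its value in replicate 1 overlapped with MCM5. The order of the 6 genes was the same in 3 of 3 libraries, and MCM6 exceeded MCM2 by 19.4, 56.8 and 39.8 times. The related MCM8, which acts in recombination, was at 3.70, 7.30 and 2.70 TPM. MCM10, which is unrelated in fold to the ring subunits and helps the helicase start, was at 7.25, 19.9 and 7.79 TPM. Both were highest in replicate 2, and they overlapped with each other.

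**Figure D2:**
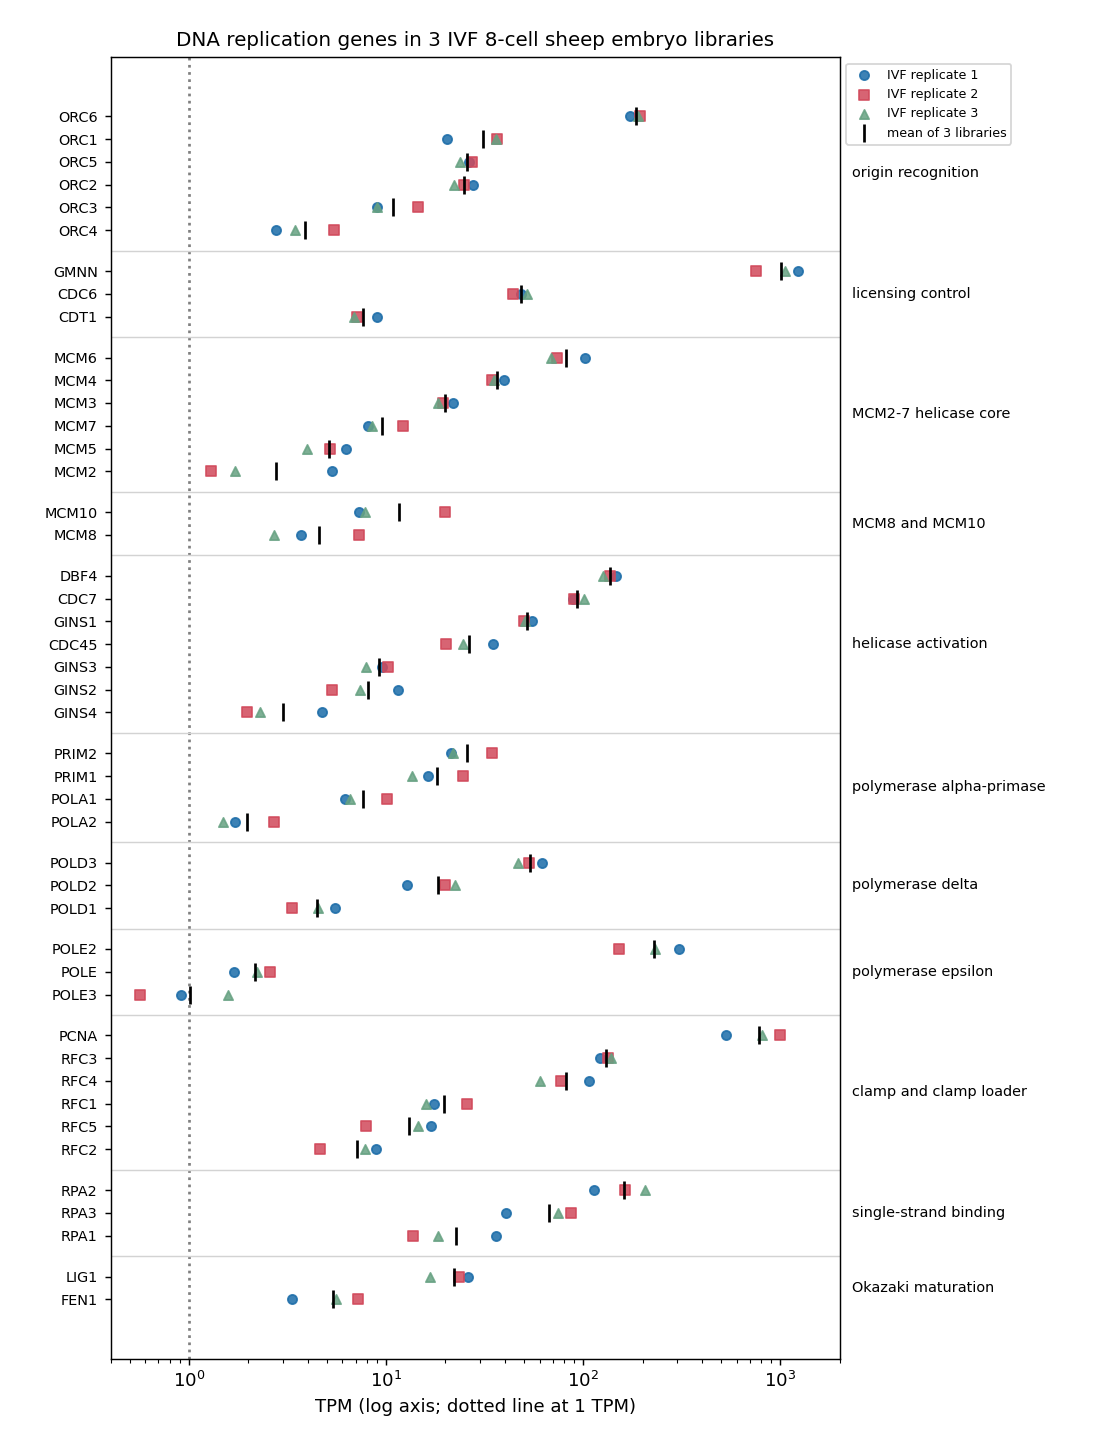
TPM of each replication gene (x axis, logarithmic) in IVF replicates 1, 2 and 3, with a vertical tick at the mean; genes are grouped by assembly and ordered by mean within it, and a dotted line marks 1 TPM. Subunits of the same assembly are spread over a wide range, from 2.55-fold between MCM10 and MCM8 to 226-fold between POLE2 and POLE3. The 226-fold value rests on POLE3, whose mean of 1.02 TPM lies near the dotted line. On the log2(TPM + 1) scale that difference is 6.81 ± 0.45.

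The kinase that fires licensed origins was well represented. Its activating subunit DBF4 was at 146, 136 and 126 TPM and the catalytic subunit CDC7 at 88.2, 89.4 and 101 TPM. DBF4 was higher in 3 of 3 libraries with no overlap, by a log2(TPM + 1) difference of 0.55 ± 0.20. CDC45, which joins MCM and GINS in the active helicase, was at 34.7, 20.1 and 24.4 TPM. The 4 GINS genes encode a ring of equal parts, yet GINS1 was at 55.0, 50.3 and 50.9 TPM and GINS4 at 4.72, 1.96 and 2.28 TPM. GINS1 exceeded GINS4 by 11.7, 25.6 and 22.3 times. GINS3 (9.22 ± 1.20 TPM) and GINS2 (8.05 ± 3.14 TPM) lay between them and overlapped with each other, although GINS2 varied from 5.31 to 11.5 TPM.

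Polymerase alpha-primase, which lays down the RNA-DNA primer, had its primase genes above its polymerase genes. The large primase subunit PRIM2 was at 21.3, 34.2 and 21.9 TPM and the catalytic primase PRIM1 at 16.3, 24.6 and 13.6 TPM, with ranges that overlapped. The catalytic polymerase subunit POLA1 was at 6.16, 10.2 and 6.53 TPM and the accessory subunit POLA2 at 1.72, 2.71 and 1.49 TPM. PRIM2, PRIM1, POLA1 and POLA2 kept this order in each library. Each of the 4 genes was highest in replicate 2. The ratio of PRIM2 to POLA1 stayed close to the same value, at 3.46, 3.37 and 3.35.

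In both leading and lagging strand polymerases an accessory gene stood highest and the catalytic gene low, but other accessory genes lay lower still. For polymerase delta, POLD3, a subunit that binds PCNA, was at 61.5, 53.1 and 46.7 TPM. POLD2, the scaffold subunit, was at 12.8, 19.8 and 22.3 TPM, and the catalytic POLD1 was at 5.49, 3.35 and 4.50 TPM. None of the 3 overlapped with another, and POLD3 exceeded POLD1 by a log2(TPM + 1) difference of 3.34 ± 0.27. For polymerase epsilon the gap was wider. POLE2, its non-catalytic B subunit, was at 305, 152 and 232 TPM, the member with the third-highest mean. Reads of POLE2 may be shared with the overlapping gene KLHDC1, as described under processing. POLE, the catalytic subunit, was at 1.70, 2.57 and 2.22 TPM. POLE2 exceeded POLE by 179, 59.2 and 105 times, and its own level was lowest in replicate 2, where POLE was highest. The accessory gene POLE3 lay below POLE in 3 of 3 libraries, without overlap. POLD4, an accessory gene of polymerase delta outside the member list, was at 0, 0.492 and 0 TPM, below POLD1.

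The sliding clamp gene PCNA was second only to GMNN by its mean, at 532, 995 and 807 TPM, lowest in replicate 1. The loader that places the clamp is a pentamer of RFC1 to RFC5, and its genes were uneven. RFC3 was at 121, 133 and 138 TPM and RFC4 at 107, 77.3 and 60.3 TPM, the former higher in 3 of 3 libraries without overlap. The large subunit RFC1 was at 17.5, 25.8 and 15.9 TPM, RFC5 at 16.9, 7.87 and 14.4 TPM, and RFC2 at 8.84, 4.63 and 7.80 TPM. RFC1 and RFC5 overlapped, as did RFC5 and RFC2. PCNA exceeded RFC3 by 4.38, 7.49 and 5.86 times.

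RPA, a trimer of equal parts that coats unwound DNA, had subunits that differed in opposite directions between libraries. RPA2 was at 113, 163 and 207 TPM and RPA3 at 40.5, 86.7 and 74.1 TPM. Both were lowest in replicate 1. RPA1, the large DNA-binding subunit, was at 35.9, 13.7 and 18.3 TPM and was highest there. RPA3 exceeded RPA1 by 1.13 times in replicate 1 and by 6.31 and 4.05 times in replicates 2 and 3. The log2(TPM + 1) difference of RPA2 and RPA1 had an SD of 1.05, the largest such SD between the highest and lowest member of any of the 11 groups. The last step, joining of Okazaki fragments, used genes of moderate to low level. LIG1 was at 25.9, 23.4 and 16.7 TPM, and the flap nuclease FEN1 at 3.33, 7.23 and 5.56 TPM. Both enzymes dock on PCNA, whose RNA exceeded that of FEN1 by 160, 138 and 145 times. The log2(TPM + 1) difference was 6.93 ± 0.01. That SD is smaller than the spread of the ratios, because the added 1 weighs on the low FEN1 values.

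Within the 11 groups, 26 of 34 neighbouring pairs in the order of means had library ranges that did not overlap. Over all 45 members placed in a single order, 3 of 44 neighbouring pairs were separated in this way, so only a coarse ranking holds across the whole list. The pairs were ordered by means of the same libraries, and no such count was made for groups of other genes. The counts also differ in how many genes were ordered together, so they are descriptions only. The replicates are 3 libraries of a single kind, and no test between groups exists.

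Variation between libraries is described, with no test, by the gap from the lowest to the highest library on the log2(TPM + 1) scale. Of the 37 members whose mean reached 5 TPM, 4 spanned 2-fold or more, beside 28.8% of 5765 symbol rows above the same level. These were MCM10 (1.34), RPA1 (1.33), RPA3 (1.08) and RFC5 (1.02), all named after their values were seen. POLE2 at 0.998 and GINS2 at 0.98 fell just short. Of the 8 members below that level, MCM2 (1.46) and MCM8 (1.17) also spanned 2-fold. The count was 8 of 37 (21.6%) after median-of-ratios scaling, which sets the libraries level by their typical gene, against 28.7% of symbol rows. It was 0 without replicate 2 and 1 without replicate 1, where the share of symbol rows was also lower, at 7.48 and 10.2%. The smallest gaps as deposited were those of GINS1 (0.13), ORC6 (0.16), RFC3 (0.18), CDC7 (0.19) and ORC5 (0.19). Which members were steadiest depended on the scaling: with median-of-ratios scaling these gaps were 0.44, 0.36, 0.43, 0.55 and 0.26, and GINS3 (0.19) and MCM7 (0.23) had the smallest. As deposited, the median gap of the 37 members was 0.64, against 0.73 for the symbol rows.

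**Figure D3:**
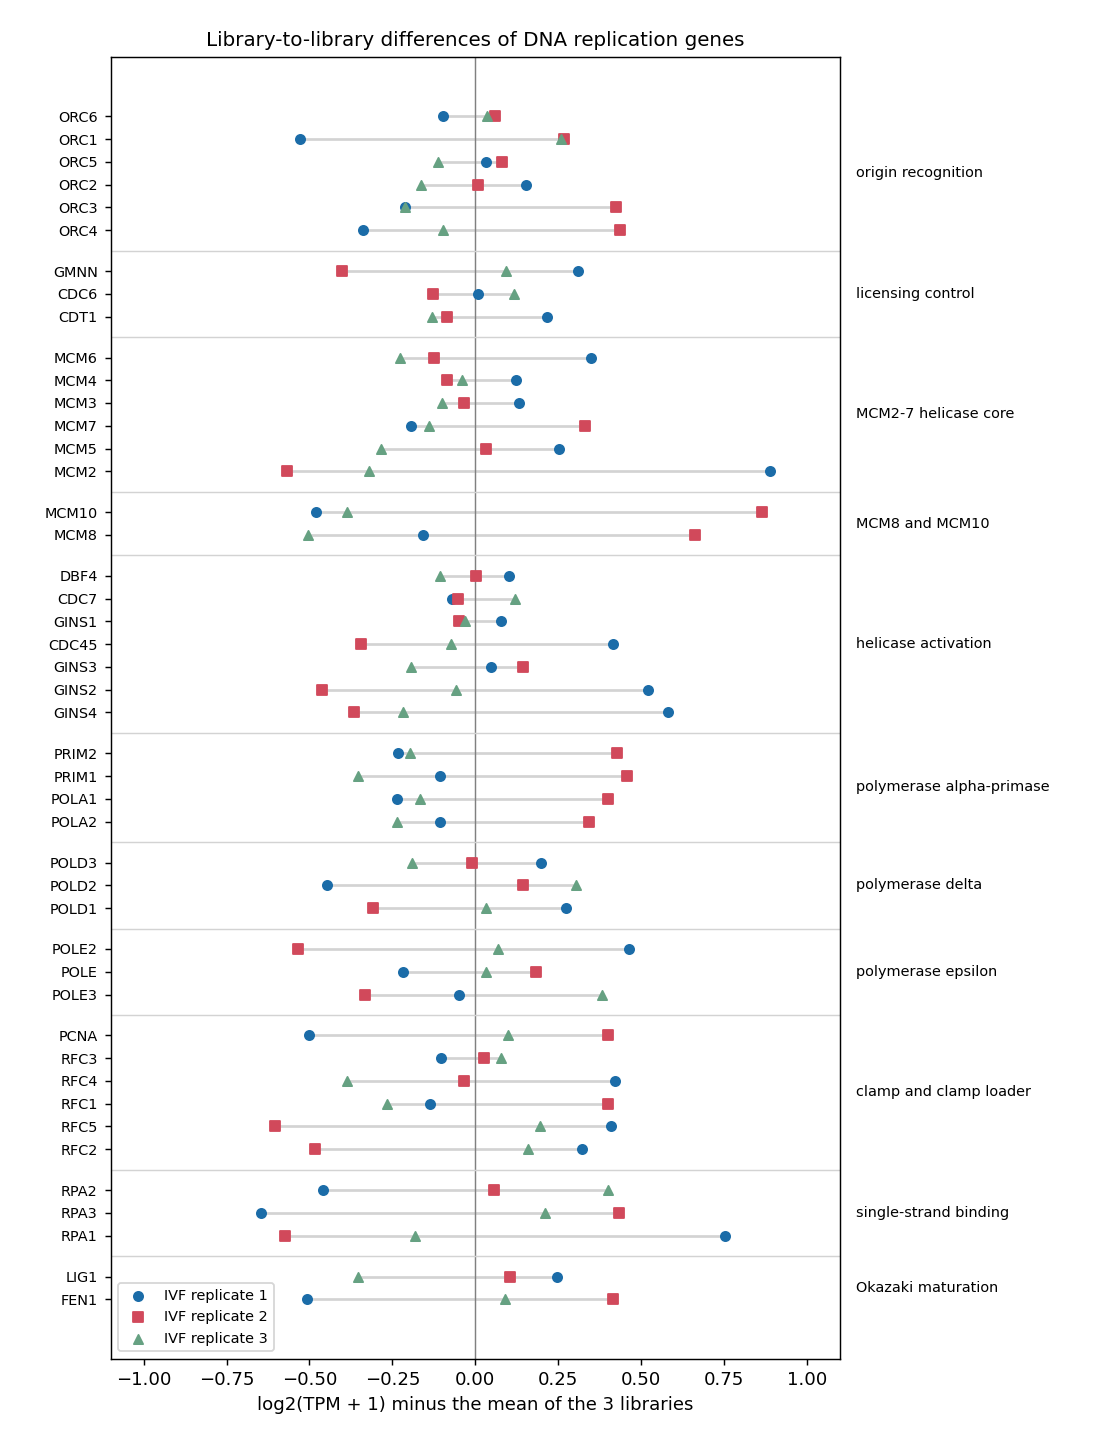
For each replication gene, log2(TPM + 1) in IVF replicates 1, 2 and 3 minus the mean of the 3 (x axis); the grey bar spans the lowest to the highest library, and genes are grouped as in the plot of levels. Replicate 2 lies to the right for all 4 polymerase alpha-primase genes and to the left for GMNN, POLE2, CDC45, GINS2 and RPA1. These genes were named after their values were seen.

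Each library held the highest value for part of the machinery. Replicate 1 held the highest value for 18 of the 37 members, beside 36.9% of symbol rows. Replicate 2 was highest for 14 members (47.5% of symbol rows) and replicate 3 for 5 (15.5% of symbol rows). After median-of-ratios scaling the counts were 20, 7 and 10 of 37, beside 40.8, 29.1 and 30.1% of symbol rows. The median member differed from the mean of the other libraries by 0.07 in replicate 1, 0.04 in replicate 2 and -0.15 in replicate 3 on the log2(TPM + 1) scale. For all symbol rows above the same level these values were -0.02, 0.16 and -0.13. As deposited, 9 of the 37 members (24.3%) were highest in replicate 1 and lowest in replicate 2, beside 22.1% of symbol rows. The reverse held for 9 members (24.3%), beside 29.8% of symbol rows. Some genes were then named after their values were seen. The 4 polymerase alpha-primase genes remained highest in replicate 2, and GMNN, POLE2, CDC45, GINS2 and RPA1 highest in replicate 1, under median-of-ratios scaling and with mitochondrial and ribosomal protein rows removed. This was not particular to them. The highest library stayed the same for 37 of 45 members under median-of-ratios scaling, and for 45 of 45 with those rows removed. Under median-of-ratios scaling 8 of 45 members changed their highest library, all of them highest in replicate 2 as deposited. ORC1, ORC6, POLE, PCNA, RPA3 and FEN1 became highest in replicate 3, and ORC5 and GINS3 in replicate 1. Under that scaling the median symbol row moved by 0.07, -0.24 and 0.13 in the 3 libraries.

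Replicate 2 also differed in other ways. Rows of the mitochondrial genome took 2.55, 5.53 and 1.94% of TPM, and 11090, 12246 and 10973 genes reached 1 TPM. Markers of the labelled embryo were present: 10 of 10 early embryo genes and 9 of 10 oocyte genes had at least 1 TPM throughout. The summed early embryo markers stood at 901, 2451 and 1219 TPM. Of the cumulus and granulosa markers 5 of 13 reached 1 TPM throughout and 2 (FOXL2 and PTX3) were listed at 0 in all libraries, with sums of 59.0 to 92.1 TPM. Of the fibroblast markers 4 of 18 reached 1 TPM throughout, with sums of 16.6 to 29.9 TPM. The highest were VIM at 7.90 ± 1.25 TPM, S100A4 at 4.11 ± 1.59 TPM and FN1 at 3.03 ± 0.95 TPM, and 2 (TWIST2 and POSTN) were listed at 0 throughout. The part of these differences in the library pattern of replication genes was not tested.

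Other genes of the pathway, from lists drawn up by role, were mostly present. The further replisome factors had a lower median than the members (19.6 TPM), and the nucleotide supply genes did not. Among 30 further replisome and initiation factors, 26 reached 1 TPM in all libraries and the median was 7.40 ± 1.12 TPM. The highest was POLE4, the histone-fold partner of POLE3, at 163, 159 and 149 TPM, so that these partner genes differed far more than either varied between libraries. TIPIN of the fork protection complex was at 74.0 ± 18.5 TPM and RNASEH2A, which removes RNA from DNA, at 71.1 ± 13.2 TPM. POLD4, the smallest subunit of polymerase delta, was at 0, 0.492 and 0 TPM, and RECQL4, which acts in origin firing, was at 0.489 ± 0.305 TPM. Nucleotide supply genes reached 1 TPM in 11 of 12 cases with a median of 24.3 ± 3.64 TPM. DUT, which keeps uracil out of DNA, led at 333, 260.1 and 244 TPM. The thymidylate genes DTYMK and TYMS followed at 162 ± 57.5 and 145 ± 84.7 TPM.

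Genes that control entry into and passage through S phase reached 1 TPM in 27 of 30 cases, with a median of 6.46 ± 1.72 TPM. The cyclin genes CCNA2 and CCNE1 were among the highest at 262 ± 36.6 and 162 ± 37.0 TPM. FBXO5, an inhibitor of the anaphase-promoting complex, was at 291, 132 and 175 TPM, lowest in replicate 2, as was GMNN. The pocket protein gene RBL2 was lowest at 0.577 ± 0.301 TPM.

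Genes of mitosis, the part of the cycle that follows replication, had a higher median than the replication genes. Of 29, 27 reached 1 TPM in all libraries, and the median was 50.3, 70.5 and 65.4 TPM. A mean above that of the median replication gene was found for 22 of the 29. On the log2(TPM + 1) scale the median replication gene minus the median mitosis gene was -1.26, -1.76 and -1.78 (mean -1.60 ± 0.30, negative in 3 of 3 libraries). An exact two-sided sign-flip permutation test over libraries gave p = 0.25, the smallest that n = 3 allows, so this test cannot pass 0.05 here. The mitosis list was led by the spindle checkpoint gene MAD2L1 at 2262, 998 and 1511 TPM. Its lowest genes were AURKB, listed at 0 in all libraries, and MAD1L1 at 0.779 ± 0.422 TPM. On the plot of list medians, nucleotide supply stands close to the replication genes and the other replisome and S-phase control lists stand below them.

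**Figure D4:**
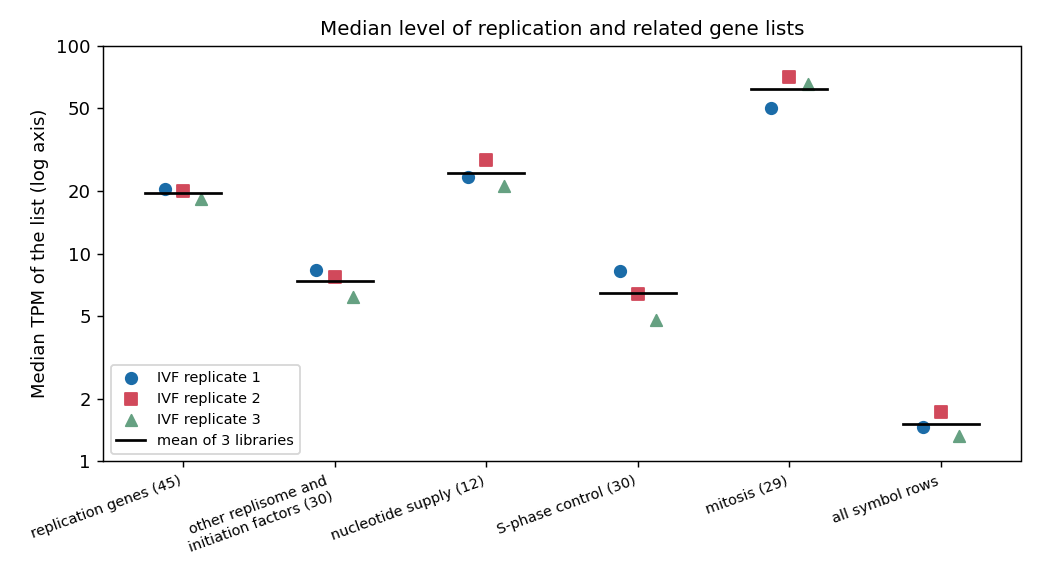
Median TPM of each gene list (y axis, logarithmic) in IVF replicates 1, 2 and 3, with a bar at the mean; numbers of genes are in parentheses. Medians of the 45 replication genes lie between 18.3 and 20.5 TPM, below those of the mitosis list (50.3 to 70.5 TPM) and above those of all symbol rows (1.32 to 1.74 TPM).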

How the data were processed

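RNA with polyA tails from sheep embryos was amplified for 20 PCR cycles and sequenced with Smart-seq2, paired reads of 150 nucleotides, per the labels' protocols. Per the submitters' processing notes, the authors used fastp 0.23.4 for trimming and HISAT2 2.2.1 for alignment. Sheep build, annotation and counting tool: not given in the sources used here. The authors deposited TPM. Each column used sums to 1000000, so depth is unknown and no interval is given. Columns were mapped to samples by name, and 4 columns of per-sample values that match no label were not used, so the planned SCNT against IVF fit with limma was not run.

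From TPM, the mean and SD over 3 IVF libraries, medians, shares and log2(TPM + 1) differences were computed. That scale understates differences of low genes. All 45 members are named, and other genes only from among the 3 highest or lowest of their list, not each of these being given. Members, lists and gene pairs were chosen with earlier results of these data known. In the ARS-UI_Ramb_v3.0 gene table, whose build may differ, 45 of 45 members matched and 0 lie wholly inside another gene. POLE2, RFC1, RFC4 and RFC5 overlap KLHDC1, WDR19, EIF4A2 and WSB2 there, and no strand setting is given, so reads may be shared. Alternatives were other thresholds, pseudocounts (0.1 and 5), scalings and leaving out each library. Python 3.11.15, numpy 2.4.6, pandas 2.3.3 and matplotlib 3.10.9 were used.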

Additional observations from a re-analysis of the deposited data

How the results depend on the processing

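No paired analysis was possible because only IVF columns could be mapped to samples, and the alternatives for SCNT against IVF were not run. Members at the threshold in all libraries numbered 45 at 0.1 TPM, 44 at 1 TPM, 34 at 5 TPM and 44 with any library left out. The back-transformed mean of log2(TPM + 1) over members, which weighs all of them, was 22.1 TPM against a median of 19.6 TPM. With mitochondrial and ribosomal protein rows removed, which raises all other TPM, the members' median was 23.3 TPM and their share 0.418%. Without GMNN and PCNA these were 18.0 TPM and 0.173%. With each library left out the median was 19.2 to 20.3 TPM and the share 0.349 to 0.356%. The replication minus mitosis difference was -1.64 with a pseudocount of 0.1 and -1.43 with 5, and ranged from -1.77 to -1.51 with each library left out. Members spanning 2-fold, 4 of 37, became 7 with a pseudocount of 0.1 (18.9%, against 32.9% of symbol rows), 8 with median-of-ratios scaling (3 of the 4 among them; the cause was not tested), 0 to 4 with each library left out (7.48 to 23.6% of symbol rows), and 21 at 1.5-fold (56.8%, against 63.6% of symbol rows). The mean over members, the lists without GMNN and PCNA, the 1.5-fold limit and the highest library under scaling were chosen after seeing the data. Depth is unknown, so for members near 1 TPM a low value cannot be told from sampling loss.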
